A study of Mus musculus with 40 samples.

Results

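The 9 genes described here encode transcription factors of the oligodendrocyte lineage: the basic helix-loop-helix proteins *Olig1*, *Olig2* and *Olig3*, the SoxE proteins *Sox8*, *Sox9* and *Sox10*, and the homeodomain proteins *Nkx2-2*, *Nkx6-1* and *Nkx6-2*. They were chosen by name out of 55536 annotated genes and not by a rule on measured values, though earlier results of these data were known. Each was followed through the H3K4me3 and H3K27me3 peaks at its promoters, defined as 2000 bp upstream to 1000 bp downstream of every annotated transcript start on mm10, and through the length of its H3K4me3 peaks.

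The study cultured oligodendrocyte precursor cells (OPCs) to compare brainstem with telencephalon, and cells with the histone mutation H3.3 K27M with control cells. Litters of hGFAP-Cre;K27M mice (spelled AMGFAP-Cre;K27M in the growth protocol of the samples) were dissected between postnatal day 5 and 7. In these mice, Cre recombinase driven by a GFAP promoter acts in neural stem and progenitor cells. Tissue was pooled by region and genotype, so that a culture stands for several animals, and OPCs were captured on an antibody against PDGFRa and grown in proliferation medium without differentiation. The labels call the dorsal telencephalon (cortex, corpus callosum and hippocampus) cortex. Each mark was profiled by ChIP-seq in control and K27M cultures 59 and 61 of the brainstem and in control and K27M cultures 59, 60 and 61 of the telencephalon, which gave 20 libraries in 5 matched pairs of K27M and control.

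*Olig2* and *Sox10* are the factors most closely tied to OPC identity, and *Sox9* and *Nkx6-1* act earlier, in the neural progenitors from which OPCs arise. H3K4me3 marks active promoters and can spread into wide domains over genes that define a cell type. H3K27me3 is laid down by Polycomb repressive complex 2 over silent developmental genes, and a promoter with both marks is called bivalent. The K27M mutant histone inhibits this complex, and H3K27me3 is then lost broadly while some strongly marked regions keep it.

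Peaks were used as the authors called them, per library and against its own input. H3K4me3 lists held 22722 to 31200 peaks in the 5 control and 20961 to 30826 in the 5 K27M libraries. H3K27me3 peaks numbered 12715 to 64808 and covered 26.5 to 152 Mb in control libraries, and numbered 4739 to 15753 and covered 13.3 to 41.4 Mb in K27M libraries. The H3K4me3 libraries of telencephalon culture 59 stood apart, with a median fold enrichment over input at promoters of 4.09 in control and 6.48 in K27M, against 11.7 to 60.9 in the other 8 libraries. The OPC markers *Pdgfra*, *Cspg4*, *Ptprz1* and *Gpr17* had H3K4me3 and no H3K27me3 at their promoters in every library (4 of 4), with a summed H3K4me3 length of 23.2 to 41.8 kb. H3K4me3 was also found at 3 of 3 neuronal markers in every library, at 0 to 3 of 3 astrocyte markers and at 0 or 1 of 3 microglial and endothelial markers, with none at *Aif1*, *Cx3cr1*, *Pecam1* and *Cdh5*. The microglial *P2ry12* had H3K4me3 in 3 of 5 control and 5 of 5 K27M libraries, and the endothelial *Cldn5* in 3 of 5 and 2 of 5. H3K27me3 lay at 1 or 2 of 3 neuronal markers, 0 to 2 of 3 astrocyte and of 3 microglial markers and 1 of 3 endothelial markers. The neuronal *Rbfox3* and the endothelial *Cldn5* carried it in all 5 control and all 5 K27M libraries. The summed H3K4me3 lengths were 4.35 to 9.69 kb for the 3 neuronal, 0 to 2.65 kb for 3 astrocyte, 0 to 1.24 kb for 3 microglial and 0 to 0.987 kb for 3 endothelial markers. Their part in the results was not tested. In bulk chromatin, a mark in fewer cells and a weaker mark in every cell cannot be told apart.

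The 9 genes fell into 6 with H3K4me3 and 3 with H3K27me3 in every library. *Olig1*, *Olig2*, *Sox8*, *Sox9*, *Sox10* and *Nkx2-2* had H3K4me3 at their promoters in all 10 libraries, 6 of 9 genes against 28.7% of all genes. *Olig3*, *Nkx6-1* and *Nkx6-2* had H3K27me3 in all 10 libraries, 3 of 9 genes against 3.28% of all genes. All genes here and below are the 55536 annotated genes, which include non-coding ones, while all 9 genes described encode proteins. The shares among protein-coding genes alone were not computed. In both control and K27M cultures and in both regions, H3K27me3 covered 100% of the promoter bases of these 3 genes. *Olig1*, *Olig2*, *Sox8* and *Sox10* had no H3K27me3 peak at a promoter in any of the 10 libraries, which was also the case for 67.2% of the genes with H3K4me3 in all 10 libraries. The grid of promoter coverage shows *Sox9* and *Nkx2-2* as the genes of the H3K4me3 group with any H3K27me3.

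**Figure D1:**
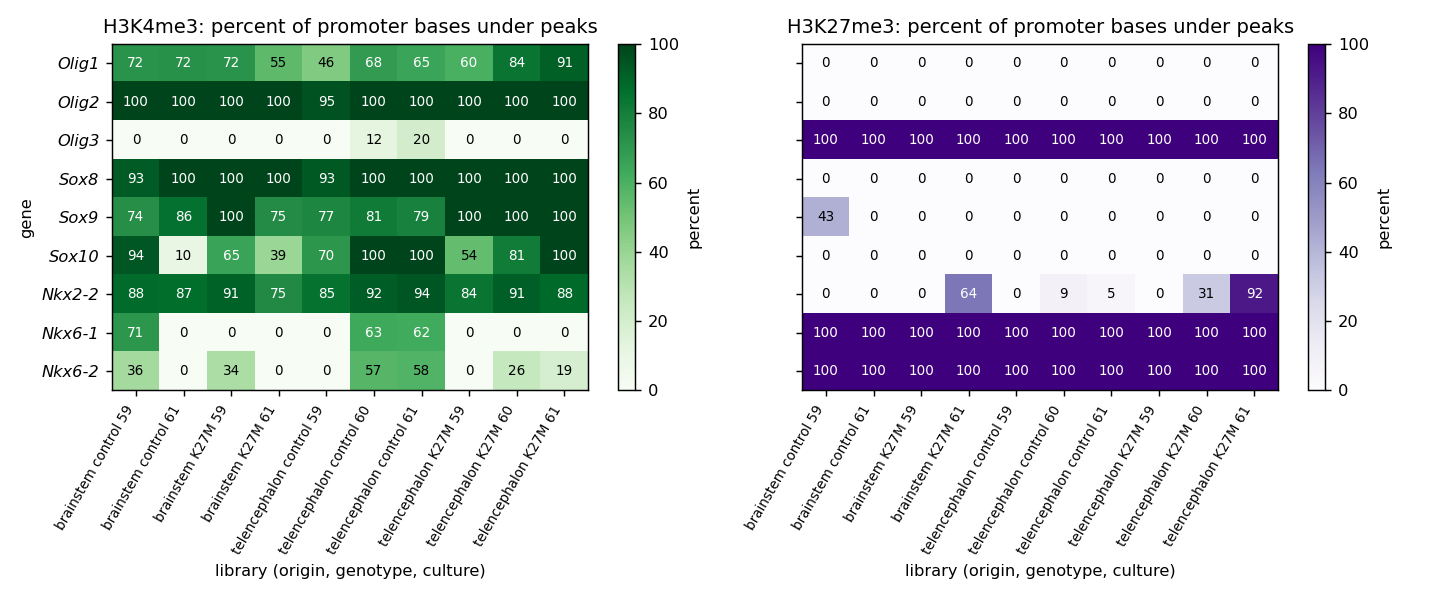
Percent of each gene's promoter bases under H3K4me3 peaks (left) and H3K27me3 peaks (right), with genes as rows and the 10 libraries of each mark as columns. *Olig3*, *Nkx6-1* and *Nkx6-2* read 100 for H3K27me3 in every column, *Nkx2-2* reaches 91.9% in telencephalon K27M 61, and *Sox10* falls to 10.2% for H3K4me3 in brainstem control 61.

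A promoter state was then assigned from the peaks supported by at least 2 cultures of a group, the rule in the study's methods. The study applied it to control cultures and to expressed genes. Here it was extended to K27M cultures and to all annotated genes, as a description. The 6 genes of the H3K4me3 group carried H3K4me3 only in brainstem control (26.4% of all genes), brainstem K27M (27.6%) and telencephalon control cultures (25.6%), and 5 of them did in telencephalon K27M (28.9%). *Olig3*, *Nkx6-1* and *Nkx6-2* carried H3K27me3 only in brainstem control cultures (3.01% of all genes) and were bivalent in telencephalon control cultures (7.3% of all genes), where 0 of the 9 carried H3K27me3 only (3.75%). In K27M, the 3 genes carried H3K27me3 only in the brainstem (1.83% of all genes), whereas in the telencephalon *Olig3* and *Nkx6-1* carried H3K27me3 only (1.57%), and *Nkx6-2* was bivalent together with *Nkx2-2* (3.53%). None of the 9 was bivalent in the brainstem, in control (4.59% of all genes) or K27M (3.04%). The rule is stricter there, since it needs 2 of 2 brainstem cultures but 2 of 3 telencephalon cultures. In 1 of 2 brainstem controls, *Nkx6-1* and *Nkx6-2* had peaks of both marks, as *Nkx6-2* did in 1 of 2 brainstem K27M libraries. The telencephalon states rested on cultures 60 and 61: without either culture, 0 genes were bivalent in telencephalon control or K27M. With H3K4me3 and H3K27me3 required in every culture, 0 of the 9 genes were bivalent in any group.

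Sequences just upstream of an annotated start are shown for 3 genes of the H3K4me3 and 2 of the H3K27me3 group, since the results turn on which mark these starts carried. Of the 9 genes, 6 were found in the RefSeq promoter table (build GRCm38.p6, the same assembly as mm10), namely *Olig2*, *Olig3*, *Sox8*, *Nkx2-2*, *Nkx6-1* and *Nkx6-2*. Bases are written 5′ to 3′ on the strand of the gene, and capitals mark CpG dinucleotides (CG), which read the same on both strands. *Olig2* is shown at chr16:91225300-91225456 (+ strand), *Sox8* at chr17:25570687-25570936 (− strand), *Nkx2-2* at chr2:147186405-147186652 (− strand), ahead of an annotated start inside the gene rather than the most upstream of its 4, *Olig3* at chr10:19356289-19356532 (+ strand) and *Nkx6-2* at chr7:139582798-139583047 (− strand).
Olig2: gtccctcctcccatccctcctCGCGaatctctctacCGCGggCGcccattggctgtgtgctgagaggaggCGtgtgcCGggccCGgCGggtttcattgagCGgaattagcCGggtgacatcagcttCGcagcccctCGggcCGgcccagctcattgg
Sox8: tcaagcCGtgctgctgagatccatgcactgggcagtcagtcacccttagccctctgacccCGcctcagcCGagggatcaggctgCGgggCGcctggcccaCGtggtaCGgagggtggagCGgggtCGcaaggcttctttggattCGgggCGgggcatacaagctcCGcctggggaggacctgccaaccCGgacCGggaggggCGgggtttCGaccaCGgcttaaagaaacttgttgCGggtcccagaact
Nkx2-2: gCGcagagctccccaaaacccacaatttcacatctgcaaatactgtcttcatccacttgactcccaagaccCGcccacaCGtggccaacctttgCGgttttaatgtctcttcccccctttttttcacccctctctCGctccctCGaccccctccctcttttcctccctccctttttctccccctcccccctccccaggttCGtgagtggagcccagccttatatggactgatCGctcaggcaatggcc
Olig3: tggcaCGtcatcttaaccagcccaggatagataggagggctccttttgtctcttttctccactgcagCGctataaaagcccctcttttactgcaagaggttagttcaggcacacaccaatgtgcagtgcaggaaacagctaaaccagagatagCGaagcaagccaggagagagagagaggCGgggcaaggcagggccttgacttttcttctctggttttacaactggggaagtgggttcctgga
Nkx6-2: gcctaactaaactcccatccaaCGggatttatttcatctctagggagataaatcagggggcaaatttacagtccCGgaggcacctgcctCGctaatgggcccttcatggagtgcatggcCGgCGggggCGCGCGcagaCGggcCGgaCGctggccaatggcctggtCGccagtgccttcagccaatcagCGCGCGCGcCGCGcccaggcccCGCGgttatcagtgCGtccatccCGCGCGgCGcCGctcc
Over the full table windows of 300 bases, from which these stretches are taken, *Olig2* held 25 CpG, *Sox8* 21 and *Nkx2-2* 17. The H3K27me3 group spanned the whole range, with 40 CpG in *Nkx6-1*, 32 in *Nkx6-2* and 4 in *Olig3*. Of the 32851 windows of this length in the table, 3.91% held at least as many CpG as *Nkx6-1*, 18.4% as many as *Olig2* and 68.6% as many as *Olig3*, and the median was 7. Among these 6 genes CpG number did not separate the groups, and *Olig1*, *Sox9* and *Sox10* had no window to compare.

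*Olig2*, required for the specification of OPCs, lies at chr16:91225457-91228677 (+ strand) and held one of the longest H3K4me3 domains. The peaks over its promoter measured 10.0 and 12.7 kb in brainstem controls 59 and 61 and 12.9 and 9.59 kb in brainstem K27M 59 and 61. In the telencephalon they measured 10.3, 14.4 and 14.3 kb in controls 59, 60 and 61 and 10.9, 12.8 and 13.5 kb in K27M 59, 60 and 61. The groups overlapped, and in each library at most 0.739% of the genes with a promoter peak were as long. *Olig1*, its neighbour and a factor for later differentiation (chr16:91269772-91271933, + strand), had a shorter and steadier domain of 4.36 ± 0.53 kb (SD, n = 10 libraries), from 3.45 to 5.34 kb. The lowest *Olig1* value was in telencephalon control 59 and the highest in telencephalon K27M 61.

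Of the SoxE genes, *Sox8*, a partner of *Sox10* in myelinating cells (chr17:25565892-25570686, − strand), had H3K4me3 over 7.38 to 13.6 kb (median 9.58 kb). *Sox9*, which acts in glial specification (chr11:112782224-112787760, + strand), had 3.76 to 7.86 kb (median 6.83 kb). For *Sox9*, the K27M telencephalon cultures at 7.22, 7.58 and 7.86 kb lay above the matched controls at 5.20, 6.43 and 5.15 kb, and 4 of 5 pairs were longer in K27M. The exception was brainstem culture 61, at 7.24 kb in control and 4.69 kb in K27M. The median length over all genes with H3K4me3 in all 10 libraries moved the same way in every pair. On the log2 scale it moved by 0.22 and −0.18 in brainstem cultures 59 and 61 and by 0.13 to 0.16 in the telencephalon. With each library centred on its median, *Sox9* was longer in K27M in 4 of 5 pairs, with differences from −0.45 to 0.75. The share of all genes with such a pattern of pairs was not computed. A *Sox9* H3K27me3 peak was called in brainstem control 59, over 42.5% of the promoter bases, and in none of the other 9 libraries. *Sox8* varied as much within groups as between them.

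**Figure D2:**
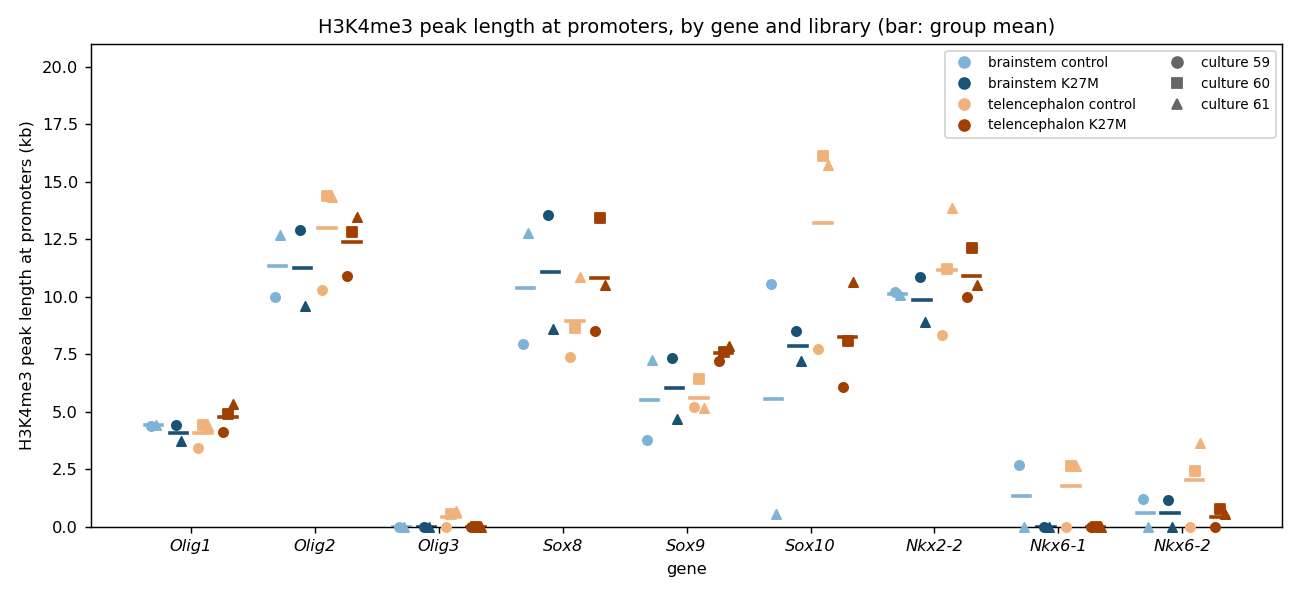
Merged length in kb of the H3K4me3 peaks at the promoters of each gene, with points for the libraries (shape, culture; colour, origin and genotype) and bars for group means; 0 means no peak. *Olig2*, *Sox8* and *Nkx2-2* sit between 7.38 and 14.4 kb in every library, and *Sox10* ranges from 0.578 to 16.1 kb.

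*Sox10*, a marker and driver of the whole lineage (chr15:79154908-79165240, − strand), varied most. Its H3K4me3 peaks measured 10.6 kb in brainstem control 59 but 0.578 kb in brainstem control 61, and 8.52 and 7.21 kb in brainstem K27M 59 and 61. In the telencephalon they measured 7.74, 16.1 and 15.7 kb in controls 59, 60 and 61 and 6.09, 8.08 and 10.7 kb in K27M 59, 60 and 61. Telencephalon controls 60 and 61 were the highest of all libraries, and K27M was shorter than its matched control in 4 of 5 pairs, brainstem culture 61 being the exception. The fold enrichment of the highest peak was also lowest in brainstem control 61: it was 25.2 and 3.14 in brainstem controls 59 and 61 and 11.2 and 10.2 in brainstem K27M. In the telencephalon it was 3.45, 115 and 54.2 in controls 59, 60 and 61 and 3.25, 19.8 and 32.2 in K27M.

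Brainstem control 61 kept a short *Sox10* peak from 1.38 to 1.96 kb downstream of the most upstream start, with further short peaks up to 4.45 kb (fold enrichment at most 3.14). In each of the other 9 libraries a single peak ran from at most 0.745 kb to at least 5.83 kb. The length in this library was 0.0678 of the median of the other 9 libraries, 8.52 kb. No other gene of the 15934 with H3K4me3 in all 10 libraries was this far below its median in this library. *Olig2* and *Sox8* were long in the same library, at 12.7 and 12.8 kb, and the nearest H3K27me3 peak to *Sox10* lay 83.1 to 85.3 kb away in all 10 libraries. The cause of the short *Sox10* peak was not tested. The map of peaks around *Sox10* and *Olig2* shows the gap in a single row.

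**Figure D3:**
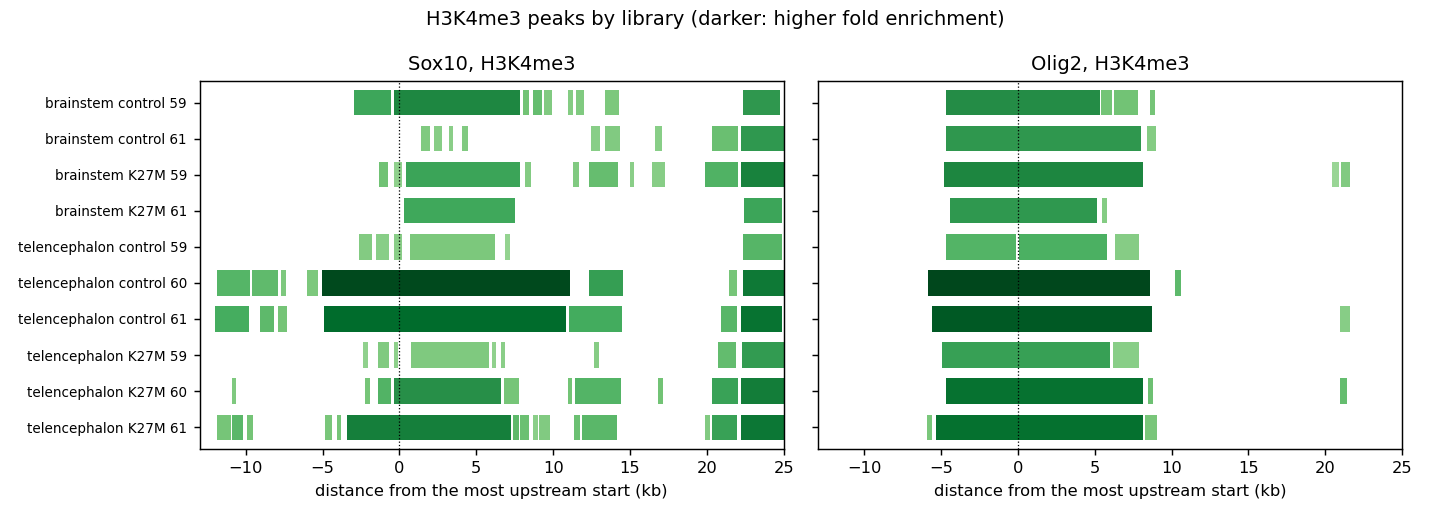
H3K4me3 peaks around *Sox10* (left) and *Olig2* (right) in the 10 libraries, by distance in kb from the most upstream annotated start (dotted line), positive in the direction of transcription; darker bars have a higher fold enrichment (log2 scale). The *Sox10* domain measures 0.578 kb at the promoters in brainstem control 61 and 16.1 kb in telencephalon control 60, while the *Olig2* domain is 9.59 kb or longer in every row.

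*Nkx2-2*, which times the differentiation of OPCs (chr2:147177546-147194243, − strand), had H3K4me3 over 8.35 to 13.9 kb (median 10.4 kb), with 4 annotated starts. It was the gene of the H3K4me3 group with the most H3K27me3. Peaks covered 63.8% of its 6304 promoter bases in brainstem K27M 61, 31.3% in telencephalon K27M 60 and 91.9% in telencephalon K27M 61. Among controls they covered 8.61% in telencephalon control 60, 5.03% in telencephalon control 61 and 0% in the other 3 controls, and coverage was 0% in K27M of both cultures numbered 59. Coverage was thus higher in K27M in 3 of 5 pairs and lower in none, a pattern described after its values were seen and met by 0.389% of the 14153 genes with H3K27me3 in any library and 0.688% of the 5233 of them with H3K4me3 in all 10. The mean difference was 34.7 percentage points (SD 39.1, n = 5 pairs). An exact permutation of the signs of the pairs gave p = 0.25 (two-sided), where 0.0625 is the lowest value possible. These peaks were weak, with a fold enrichment of 2.25 to 2.83 in 4 libraries and 6.77 in telencephalon K27M 61. With peaks of fold enrichment of at least 3 alone, the mean difference was 18.4 points and came from telencephalon culture 61. H3K4me3 persisted beside them, at 8.90 kb in brainstem K27M 61 and 10.5 kb in telencephalon K27M 61. *Sox9* coverage differed by −8.51 points (SD 19.0, n = 5 pairs, exact p = 1) because of its single peak, and for the other 7 genes coverage was the same in K27M and control in every pair.

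H3K27me3 outside the promoters lay farther from *Olig1* and *Olig2* in K27M than in control libraries. The nearest peak to *Olig1* was 8.99 to 162.6 kb away in the 5 controls (median 11.5 kb) and 220.5 to 1227 kb away in the 5 K27M libraries (median 1227 kb). For *Olig2* the distances were 16.7 to 118.3 kb in controls (median 21.0 kb) and 176.1 to 1272 kb in K27M (median 1271 kb). Control and K27M did not overlap for these 2 neighbours on chromosome 16, as for 28.9% of the 10698 genes compared, those with H3K4me3 in all 10 libraries and no H3K27me3 at a promoter in any. They overlapped for *Sox8*, at 28.6 to 71.4 kb in controls and 71.3 to 71.4 kb in K27M, and for *Sox10*. K27M libraries held fewer H3K27me3 peaks in all, and the part of this was not tested.

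**Figure D4:**
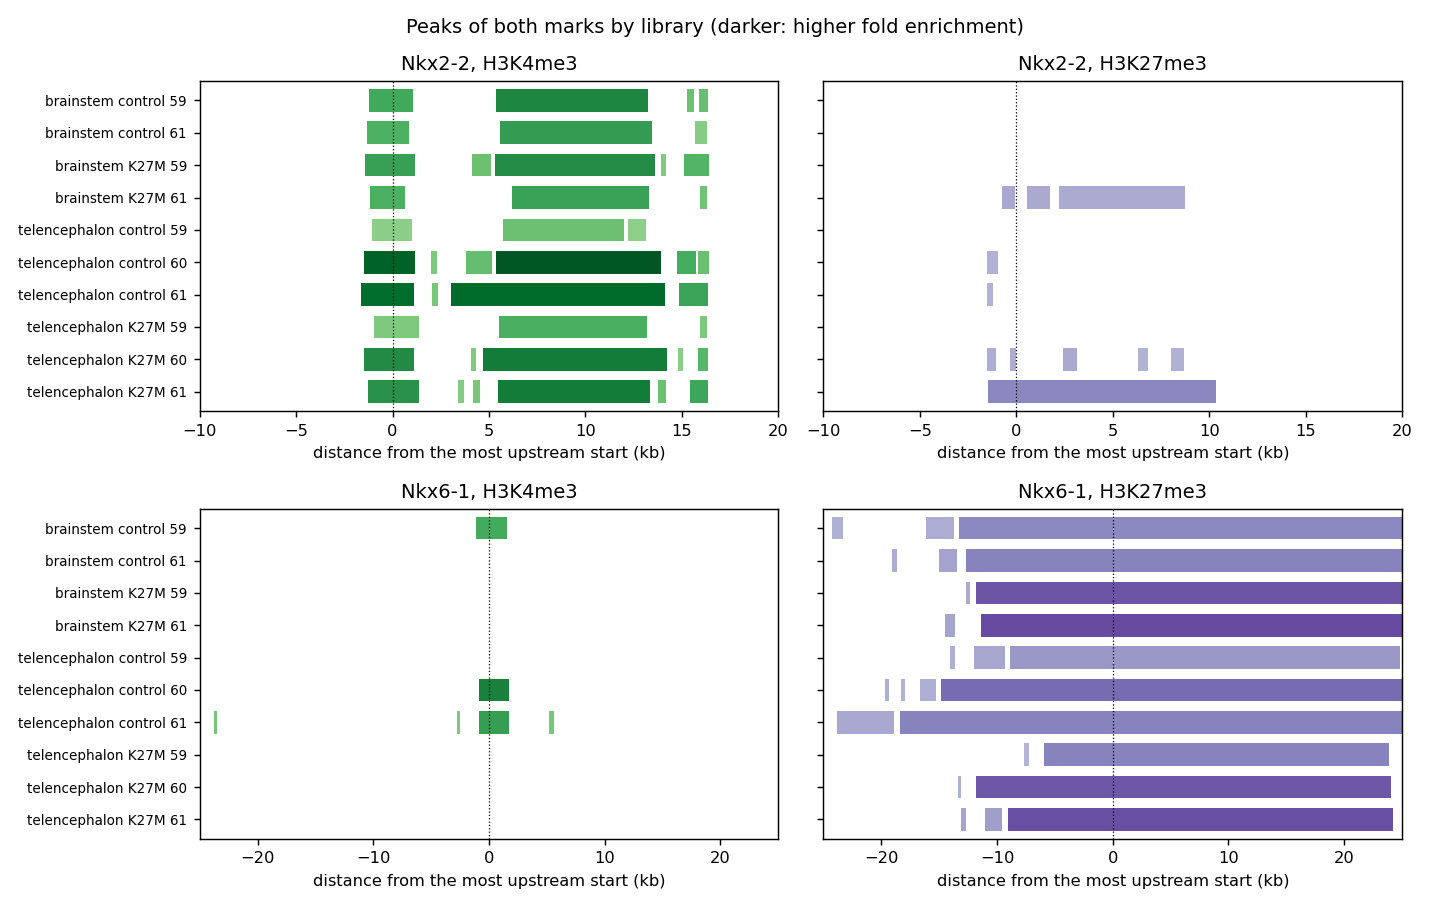
Peaks of H3K4me3 (left) and H3K27me3 (right) around *Nkx2-2* (top) and *Nkx6-1* (bottom) in the 10 libraries of each mark, by distance in kb from the most upstream annotated start (dotted line), positive in the direction of transcription; darker bars have a higher fold enrichment (log2 scale). H3K27me3 at *Nkx2-2* covers 91.9% of promoter bases in telencephalon K27M 61 and none in 5 rows, while *Nkx6-1* has it in every row and H3K4me3 in 3 control rows alone.

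The H3K27me3 group consisted of *Olig3*, a factor of dorsal hindbrain and spinal cord progenitors (chr10:19356533-19358604, + strand), and *Nkx6-1* (chr5:101658139-101664996, − strand) and *Nkx6-2* (chr7:139579376-139582797, − strand), which pattern ventral progenitors. Their H3K27me3 domains measured 18.4 to 31.4 kb, 29.8 to 64.0 kb and 6.69 to 13.9 kb over the 10 libraries. H3K4me3 at these promoters was short and irregular. *Nkx6-1* had a peak of 2.70 kb in brainstem control 59, 2.63 kb in telencephalon control 60 and 2.64 kb in telencephalon control 61, and none in any K27M library. *Olig3* had peaks of 0.550 and 0.673 kb in telencephalon controls 60 and 61 and none elsewhere. *Nkx6-2* had 1.22 kb in brainstem control 59, 2.44 and 3.64 kb in telencephalon controls 60 and 61, 1.17 kb in brainstem K27M 59 and 0.769 and 0.568 kb in telencephalon K27M 60 and 61.

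The H3K4me3 peak was thus lost in K27M in 3 of 5 pairs at *Nkx6-1* and in 2 of 5 at *Olig3*, and gained in none. Losses in at least 2 pairs with no gain, a rule set after these values were seen, were found in 2.55% of the 18730 genes with H3K4me3 in at least 2 controls. Among the 1537 of these genes that kept H3K27me3 in all 10 libraries, the share was 13.3%. At *Nkx6-2*, H3K4me3 was shorter in K27M in all 3 pairs with a peak in both libraries, at 0.156 to 0.955 times the control length. Of the 3 controls with a *Nkx6-1* peak, telencephalon controls 60 and 61 had the highest H3K4me3 enrichment of all libraries (medians of 60.9 and 49.4) and brainstem control 59 a median of 17.8. The part of this in the result was not tested.

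All 3 genes of the H3K27me3 group kept the mark in K27M, as did 61.4% of the 2964 genes with H3K27me3 in all 5 controls, and its fold enrichment was higher in K27M than in the matched control in 5 of 5 pairs for each of them. Of the 1820 genes with H3K27me3 in all 10 libraries, 46.4% were higher in 5 of 5 pairs. Fold enrichment is a ratio to input within each library and was not scaled by the Drosophila spike-in. A higher ratio therefore need not mean more of the mark. K27M libraries had less of the genome under H3K27me3 peaks, and the part of this was not tested. At *Olig3* it was 7.74 and 7.77 in brainstem controls 59 and 61 and 22.7 and 32.2 in K27M, and 5.98, 16.1 and 11.1 in telencephalon controls 59, 60 and 61 and 10.4, 22.4 and 26.8 in K27M. At *Nkx6-1* it was 6.56 and 8.04 in brainstem controls and 20.5 and 25.4 in K27M, and 4.36, 13.2 and 7.70 in telencephalon controls and 7.85, 20.3 and 23.6 in K27M. At *Nkx6-2* it was 7.76 and 8.53 in brainstem controls and 22.1 and 24.5 in K27M, and 3.36, 15.1 and 7.21 in telencephalon controls and 7.17, 18.8 and 23.7 in K27M. In the brainstem both K27M libraries lay above both controls for the 3 genes, as they did for 66.1% of the 1820 genes, and the library medians themselves were higher in K27M by 0.41 and 0.81 on the log2 scale in cultures 59 and 61. In the telencephalon, K27M 59 lay below control 60 and K27M 60 and 61 lay above all controls.

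**Figure D5:**
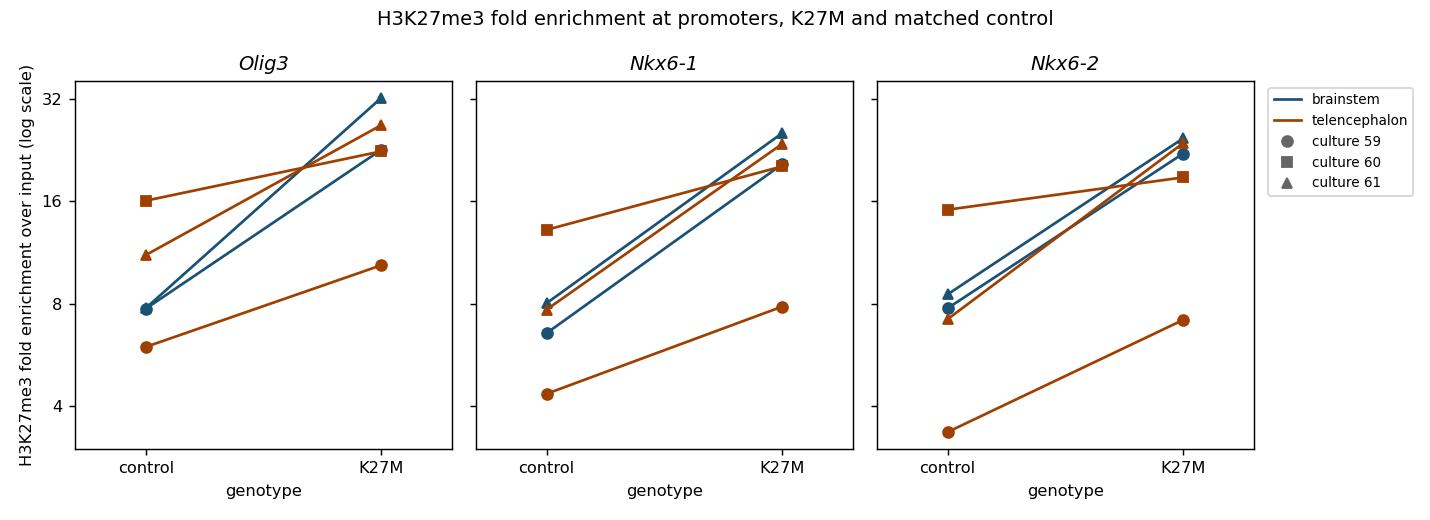
Fold enrichment of H3K27me3 over input at the promoters of *Olig3*, *Nkx6-1* and *Nkx6-2* on a log scale, with lines joining the K27M and control library of a culture. All 5 lines rise for each gene, from 3.36 to 16.1 in control to 7.17 to 32.2 in K27M.

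The difference was tested with limma on log2 fold enrichment over the 1820 genes with H3K27me3 in all 10 libraries, each library centred on its median, with matched pairs as blocks and Benjamini-Hochberg adjustment. Of the 9 genes, 3 could be tested, because the others lacked a peak in some library. *Olig3* rose by 1.19 on the log2 scale in the brainstem (SE 0.16, adjusted p = 0.00225) and by 0.60 in the telencephalon (SE 0.13, adjusted p = 0.00462). *Nkx6-1* rose by 1.04 (SE 0.19, adjusted p = 0.00276) and 0.78 (SE 0.15, adjusted p = 0.00343), and *Nkx6-2* rose by 0.91 (SE 0.21, adjusted p = 0.0072) and 0.79 (SE 0.18, adjusted p = 0.00557). Without brainstem culture 59 the brainstem difference of *Nkx6-2* was 0.71 (adjusted p = 0.076), where 1 control and 1 K27M library remain and are assumed to vary like the telencephalon libraries. Calls were common among the genes tested. In the brainstem 55.9% passed, 593 genes or 32.6% higher and 424 or 23.3% lower. In the telencephalon 51.9% passed, 609 genes or 33.5% higher and 335 or 18.4% lower. All 3 genes were called higher in each region. Without centring, the median of all genes shifted by 0.65 in the brainstem and 0.31 in the telencephalon, and 855 genes were called higher and 8 lower, and 645 higher and 42 lower. The 3 genes were then higher by 1.51 to 1.80 and by 0.85 to 1.04, and stayed past the threshold. The effect did not pass a test of its difference between telencephalon and brainstem for any of the 3 genes (differences of −0.59 to −0.11, adjusted p from 0.744 to 0.946 by limma; 0.0549% of genes called). Nor did any of the 3 differ between regions in control (0.0549% of genes called) or in K27M cultures (0.659% called). The length of their H3K27me3 domains did not pass between K27M and control in the brainstem (adjusted p from 0.403 to 0.957 by limma, 0.11% of genes called) or the telencephalon (adjusted p from 0.207 to 0.549, 0.549% called).

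The length of H3K4me3 domains was tested in the same way over 15934 genes, of which 6 were members. No member passed in any comparison. Between K27M and control, limma differences were −0.14 to 1.65 on the log2 scale in the brainstem (adjusted p = 0.999) and −0.78 to 0.29 in the telencephalon (adjusted p from 0.609 to 0.872). Here 0% of genes passed in both regions, with 474 and 1324 genes at an unadjusted p under 0.05 and none of the 6 among them. The K27M effect differed between regions by −2.43 to 0.22 (0% of genes called, adjusted p from 0.992 to 0.995, 519 genes and none of the 6 at an unadjusted p under 0.05). The extremes of −2.43 and 1.65 were both *Sox10*, and without brainstem control 61 they became −0.25 and −0.53. In the telencephalon *Sox10* was shorter in K27M in 3 of 3 pairs (log2 difference −0.78, SE 0.70, adjusted p = 0.733). Without brainstem control 61 the SE was 0.15 and the adjusted p was 0.645.

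Between telencephalon and brainstem controls, *Sox10* differed by 2.46 (SE 0.94, adjusted p = 0.908) and *Olig2* by 0.31 (SE 0.12, adjusted p = 0.908), the 2 members with an unadjusted p under 0.05, of 0.029 and 0.0363. In limma 0% of genes passed and 815 had an unadjusted p under 0.05. Without brainstem control 61 the *Sox10* difference was 0.37 (SE 0.32, adjusted p = 1.00), and without brainstem culture 59, which leaves that library as the only brainstem control, it was 4.55 (SE 0.34, adjusted p = 0.0535). In both fits the lone brainstem control is assumed to vary like the other groups. Between the K27M cultures of both regions 0.0188% of genes passed, all 3 of them lower in the telencephalon, and the members differed by −0.04 to 0.35, with *Olig1* at an unadjusted p of 0.0466. Leaving out telencephalon culture 59 raised the number of genes called to 110 for K27M in the telencephalon and to 1305 between control regions, with 0 members among them. H3K27me3 coverage between telencephalon and brainstem controls differed by 4.55 points at *Nkx2-2* and −21.3 points at *Sox9* (exact permutation p = 0.4 for each, the smallest possible being 0.1) and by 0 at the other 7 genes.

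*Olig2*, *Sox8* and *Nkx2-2* ranked within the longest 5% of H3K4me3 domains in all 10 libraries, which 2.15% of the 15934 genes did. In fold enrichment, *Nkx2-2* was at percentile 45.8 to 96.6 and *Sox10* at 3.06 to 95.1 of the genes with a promoter peak, while *Olig2* was at 78.2 to 96.0. *Olig2* was the longest of the 9 genes in 4 libraries, and *Sox8* and *Sox10* in 3 each.

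Of 21 other regulators of the lineage, all had H3K4me3 in all 10 libraries and 6 ranked within the longest 5% in all of them. By mean rank the widest were *Sox6*, a brake on premature differentiation, with a median length of 21.7 kb over the 10 libraries, *Nfib* with 19.8 kb, the progenitor factor *Sox2* with 19.5 kb and *Myt1* with 11.7 kb. *Myrf*, which switches on myelin genes in maturing cells, was the shortest by mean rank, at 0.378 to 2.84 kb. In control cultures H3K4me3 only was the state of 20 of 21 in the brainstem (*Id4* was bivalent) and 19 of 21 in the telencephalon (*Sox5* and *Id4* were bivalent). In K27M all 21 had this state in the brainstem, and 20 had it in the telencephalon, where *Id4* was bivalent. No H3K4me3 length of these genes passed limma in any comparison. None of the 21 carried H3K27me3 only in any group.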

How the data were processed

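The data were ChIP-seq peaks of both marks in 20 mouse OPC libraries. Reads were processed and mapped to mm10 by the authors with BWA (0.7.17-r1188), and peaks were called per library against its input with MACS2 (2.2.7.1), narrow for H3K4me3 and broad for H3K27me3. For each peak the deposited lists give a ratio, the fold enrichment over input, and the −log10 p-value and q-value. The Drosophila spike-in did not enter them. Read depth was not used here, and precision is limited by the number of cultures. Inputs were not analysed here.

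Peaks were assigned to promoters of GENCODE M21 (55536 genes) with an overlap of at least 1 bp, and lengths of peaks on the promoters of a gene were merged and summed in Python 3.11.15 with numpy 2.4.6. Consensus peaks needed at least 2 cultures and a combined p of 1e-10 (H3K4me3, weak p 1e-06) or 1e-08 (H3K27me3, weak p 1e-04). limma (3.58.1) was fitted to log2 length or fold enrichment of genes with a peak in all 10 libraries, with a threshold of 0.05. Group sizes are 2 and 3, and p-values measure the spread between cultures. In limma this spread was shared by both regions, so that p-values of the brainstem also rest on the telencephalon cultures and the reverse. Cultures of the same number and region were taken as the matched pairs of the study. Deviations from group means correlated within the telencephalon pairs across 15934 genes (r = 0.66, 0.41 and 0.40 in 59, 60 and 61). They did not in the brainstem (r = −0.014), where 2 cultures a group force the same value on both pairs. The functions were tested on simulated data. Named genes were all 9 members, up to 4 of 21 other regulators by mean rank of length, and the 3 protein-coding genes most alike the member with the largest difference between control regions. *Myrf*, *Id4*, *Sox5* and the genes that share a domain with a member were named after their values were seen. Members, lists and tests were chosen with earlier results of these data known. Tests of fold enrichment and of H3K27me3 length, and fits without brainstem control 61, were added after the data were seen.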

Additional observations from a re-analysis of the deposited data

Results flagged for a closer look

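At *Olig1*, every telencephalon pair moved opposite to every brainstem pair after centring of the libraries. H3K4me3 length was higher in K27M in the 3 telencephalon pairs and lower in the 2 brainstem pairs, a difference between the mean log2 effects of 0.22. The limma test of this difference gave an SE of 0.15 and an adjusted p of 0.992. H3K4me3 fold enrichment at *Olig1* moved the other way, lower in the telencephalon and higher in the brainstem, with a difference of −0.52 (SE 0.32, adjusted p = 0.970 by limma). *Sox8* fold enrichment was also lower in K27M in every telencephalon pair and higher in every brainstem pair, with a difference of −0.12 (SE 0.31, adjusted p = 0.980 by limma). None of the 3 differences passed the test, and the share of all genes with such opposite directions was not computed.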

How the results depend on the processing

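No member passed for H3K4me3 length, H3K4me3 fold enrichment or H3K27me3 length in the alternatives run, and the number of members with H3K4me3 (6) or H3K27me3 (3) in all 10 libraries was the same under stricter peaks and a window of 1000 bp. With an overlap of at least 500 bp it was 5 for H3K4me3, since *Sox10* in brainstem control 61 dropped out, and 3 for H3K27me3. The number of genes called for H3K4me3 length did change. For K27M in the brainstem it was 1 without centring. For K27M in the telencephalon it was 1 with fold enrichment of at least 3, 2 without centring and 0 to 110 with a matched culture left out. Between control regions it was 3 with gaps of 500 bp joined, 3 without brainstem control 61 and 0 to 1305 with a culture left out. Between K27M regions it was 0 without centring, 0 with a peak in at least 8 libraries, 0 with a replicate block on the culture number, 1 without brainstem control 61 and 0 to 15 with a culture left out. The pairing of K27M with control changed no call of a member: with no replicate block 0 genes passed for length in either region, and *Olig3*, *Nkx6-1* and *Nkx6-2* stayed past the threshold for H3K27me3 fold enrichment.

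With cultures left out, that fold enrichment was called in 572 to 1111 genes in the brainstem and 583 to 1009 in the telencephalon, and *Nkx6-2* in the brainstem was 0.71 (adjusted p = 0.076 by limma) without brainstem culture 59. *Sox10* length for K27M in the brainstem ranged from −0.53 to 3.82 with a culture left out (the lowest without brainstem culture 61, the highest without brainstem culture 59), and was −0.53 without brainstem control 61 alone, a reversed direction. *Olig2* for K27M in the telencephalon reversed to 0.051 with the longest single peak. Bivalent members in the telencephalon were 0 to 3 in control and 0 to 2 in K27M with a culture left out, 0 in both with a peak required in every culture, and 1 in K27M with fold enrichment of at least 3. The cause was not tested. States of the brainstem could not be recomputed with a culture left out, since 1 culture gives no consensus. With a brainstem culture left out, 1 library per genotype remains there and is assumed to vary like the telencephalon libraries. Signal below the peak threshold was not measured, and 2 or 3 cultures a group limit every test.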

Other observations

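Among 12739 protein-coding genes with H3K4me3 in all 10 libraries, the centred log2 lengths most alike those of *Sox10* were found at *Tceal3* (Pearson r = 0.95), *Cwc25* (r = 0.95) and *Bag3* (r = 0.93). These are descriptions over 10 libraries that share cultures and enrichment. Brainstem control 61 weighs heavily in them, since the centred log2 length of *Sox10* was 9.16 there and the next lowest value was 12.7, in telencephalon K27M 59. Correlations without brainstem control 61 were not computed.

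Several domains also cover promoters of other annotated genes, so that the H3K4me3 length cannot be assigned to a single gene. This was the case for *Gm49614* at *Olig2*, *2810468N07Rik* and *AC131323.3* at *Sox8*, *BC006965* at *Sox9*, *Gm10863* at *Sox10*, and *6430503K07Rik* and *Nkx2-2os* at *Nkx2-2*. The spans of the *Olig1*, *Olig3*, *Nkx6-1* and *Nkx6-2* domains held no other promoter.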
